A study of Mus musculus with 10 samples.

Results

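The genes described here are 43 members of the interferon response, chosen by gene symbol from a table of 24331 genes, and all 43 symbols had a row of their own. The tissue was full-thickness back skin of wild type C57BL/6 males at 7 to 8 weeks of age. Wax depilation had put the hair follicles into their growth phase, and 9 days later the mice got cyclophosphamide, whose metabolites alkylate DNA, at 150 mg/kg into the peritoneum. Skin collected at 0h, before the drug, is compared with skin from 4 later times, 6h, 12h, 24h and 48h, each represented by 2 libraries. Every group was depilated, vehicle-treated mice were not analysed here and the hour of collection is not given, so drug, days since depilation and time of day cannot be told apart. Whether the libraries of a time share a mouse is not stated, and a p-value here measures library-to-library spread, which may be technical. The table numbers the libraries 2 and 3, and where 2 values are given for a time, library 2 comes first.

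Interferons are cytokines that cells release after sensing foreign or misplaced nucleic acid, and immune cells release the gamma type. Types I and III signal through JAK kinases to a complex that includes Stat2 and Irf9 and binds the interferon-stimulated response element in promoters, while interferon gamma acts through gamma-activated sites. The target genes encode sensors, transcription factors that sustain the response, enzymes that degrade or block viral RNA, and inhibitors that end it. In skin, keratinocytes, fibroblasts and resident immune cells all have interferon receptors.

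Promoters of the genes were searched for the response element, since it is the sequence through which the family is known to be switched on. RefSeq windows of 300 bases on GRCm38.p6 (the mm10 build), from 250 before to 50 after the transcription start, were found for 33 of the 43 genes. The core, GAAA, any 2 bases, then GAAA, on either strand and allowing overlaps, were present in at least 1 window of 17 of the 33 genes (51.5%), against 3.99% of 27025 genes with a window. Letters of the gamma-activated site, TTC, any 3 bases, then GAA, which read the same on both strands, were present in 10 of the 33 (30.3%), against 9.55% of all genes. The 160 bases before the start are shown for 3 genes that rose at 24h (Isg15, Ifit3 and Bst2) and 2 GTPase genes whose highest mean was at 6h (Gbp2 and Igtp), 5′ to 3′ on the strand of the gene, with matches to the response element core in capitals.
Isg15, chr4:156200819-156200978, minus strand: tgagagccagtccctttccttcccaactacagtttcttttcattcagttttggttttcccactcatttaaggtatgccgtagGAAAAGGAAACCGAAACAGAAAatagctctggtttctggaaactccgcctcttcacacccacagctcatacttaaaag
Ifit3, chr19:34583369-34583528, plus strand: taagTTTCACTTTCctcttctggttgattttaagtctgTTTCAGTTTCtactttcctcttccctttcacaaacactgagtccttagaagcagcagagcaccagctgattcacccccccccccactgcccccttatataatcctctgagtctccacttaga
Bst2, chr8:71537473-71537632, minus strand: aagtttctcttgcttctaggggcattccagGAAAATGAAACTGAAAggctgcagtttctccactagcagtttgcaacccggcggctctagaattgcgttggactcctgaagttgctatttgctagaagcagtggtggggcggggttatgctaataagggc
Gbp2, chr3:142620503-142620662, plus strand: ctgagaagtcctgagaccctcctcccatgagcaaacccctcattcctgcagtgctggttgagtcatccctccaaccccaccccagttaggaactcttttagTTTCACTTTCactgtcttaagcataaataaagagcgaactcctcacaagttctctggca
Igtp, chr11:58199396-58199555, plus strand: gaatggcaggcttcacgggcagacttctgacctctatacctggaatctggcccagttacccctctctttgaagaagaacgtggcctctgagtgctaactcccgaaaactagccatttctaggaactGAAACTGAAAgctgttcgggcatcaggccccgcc
In Isg15 the core occurs 3 times in 1 overlapping run of 22 bases that starts 78 bases before the transcription start, and in Bst2 2 overlapping copies form a run of 16 bases. Ifit3 has 2 separate copies, read on the opposite strand. The element was present in 5 of 8 genes with a window that rose at 24h and in 12 of 25 others, so the match alone did not separate them.

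Expression is given as FPKM, fragments counted relative to transcript length and to the mapped total of the library, so levels of different genes can be set side by side. Before the drug the family was mostly low. The median member was at 2.35 FPKM at 0h against 9.20 FPKM for the 13625 genes tested, a gene being tested if 2 or more libraries reached 1 FPKM. At 0h 7 members were under 1 FPKM, 29 between 1 and 10, 6 between 10 and 100, and 1 above 100. Ifitm3, a membrane protein that blocks entry of viruses into cells, was the highest at 278 and 272 FPKM, followed by Bst2 and Isg15. Of the 43, 40 passed the filter on low values. Herc6, Oas3 and Ifi44 were left out, with highest values of 1.09, 1.27 and 1.10 FPKM, each in 24h library 3, and Mx2 passed through its 24h libraries alone.

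**Figure D1:**
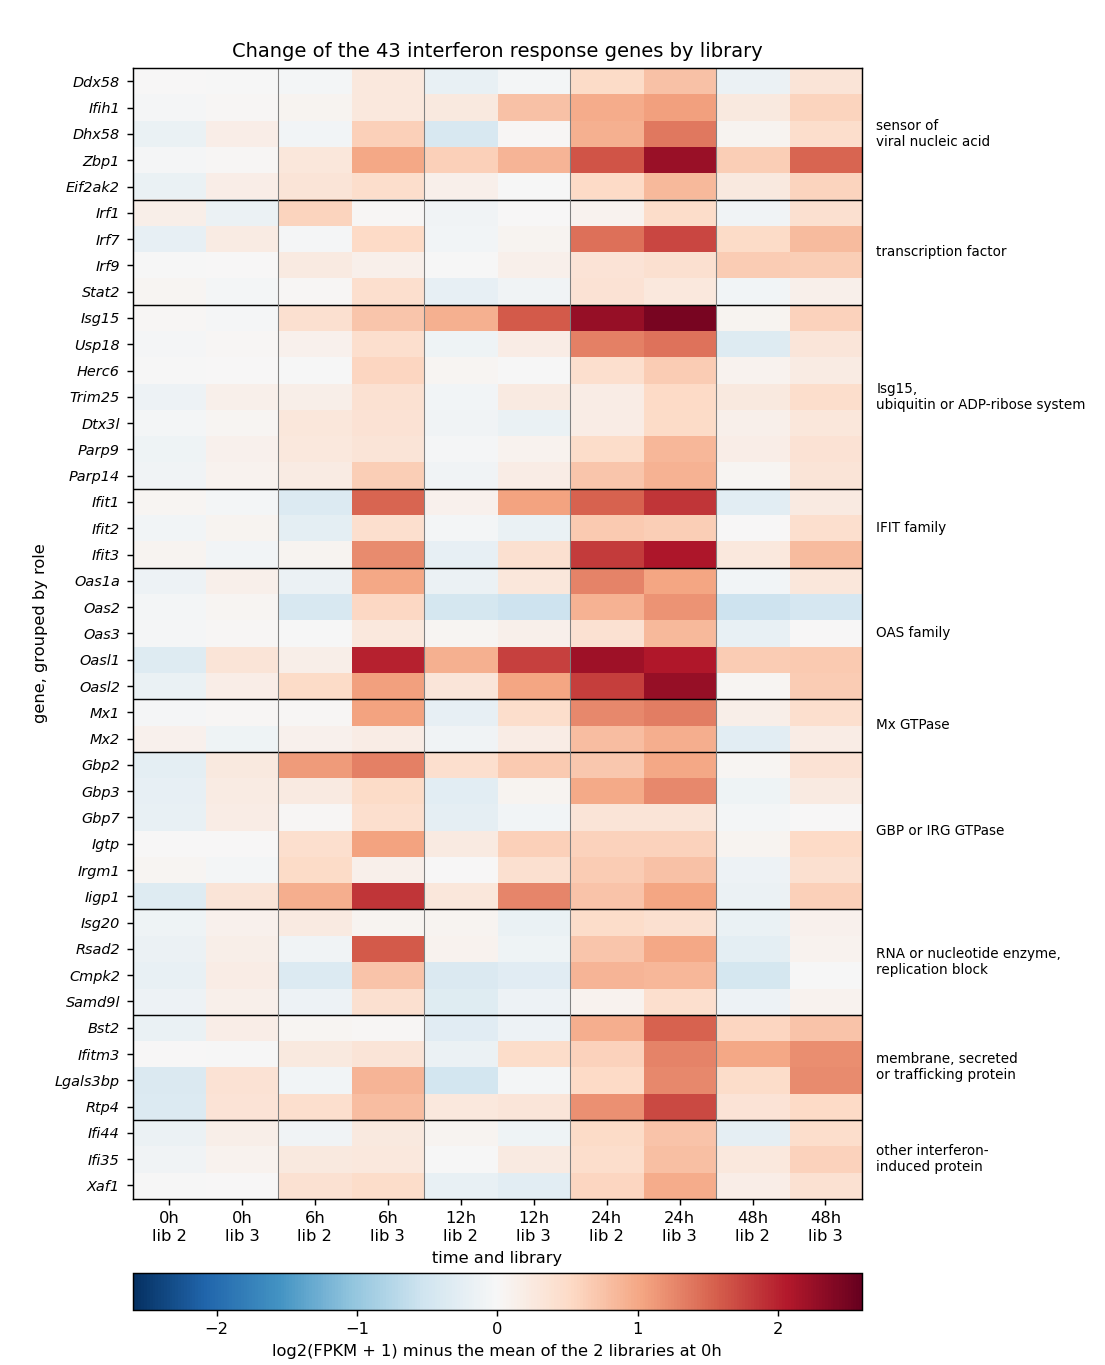
Each row is 1 of the 43 genes, ordered by role, and each column 1 library; colour is log2(FPKM + 1) minus the mean of the 2 libraries at 0h. Both 24h columns are red in nearly every row, 6h library 3 is redder than 6h library 2, and the 48h columns are mostly pale except for rows such as Ifitm3, Lgals3bp and Zbp1.

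The family as a whole stood highest 24h after the drug. Of the 43 genes, 24h held the highest mean for 36, 6h for 5, 48h for 2, and neither 0h nor 12h for any, while 9.09% of all genes tested had their highest mean at 24h. Both 24h libraries were above both 0h libraries in 41 of 43 members and below them in 0, against 15.8% and 37.2% of genes tested, and the exceptions were Irf1 and Samd9l. Changes were tested with limma (a linear model with 1 mean per time on log2(FPKM + 1), p adjusted by Benjamini-Hochberg over the 13625 genes, two-sided), with an adjusted p under 0.05 as the threshold. At 24h 11 of the 43 rose against 0h, 0 fell, 29 did not pass and 3 were not tested, while of all genes tested 1.37% rose and 1.94% fell. The median difference over the 43 was 0.86 on the log2(FPKM + 1) scale, with a range from 0.26 to 2.37, beside a median of -0.10 over all genes tested. This scale understates the change of low genes. In whole skin, more cells of a type and more RNA per cell cannot be told apart.

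Which library was left out moved the 24h count widely. It was 1 when either 0h library 2 or 24h library 3 was dropped, 4 on dropping 0h library 3, and 17 on dropping either library of 6h. Isg15 passed with each of the 10 libraries left out (adjusted p from 0.00153 to 0.0291). The 24h difference of each tested gene stayed above zero with any 1 library left out, except that Mx2 failed the filter without either 24h library. Over 4 comparisons with 0h together, 14 of the 43 changed at some time (limma F test, 7.35% of all genes tested), and dropping 0h library 2 left 3, 0h library 3 left 7, 24h library 3 left 5, and either library of 48h left 6.

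Among the genes of the Isg15 system, Isg15 and its protease stood out. Isg15 (chromosome 4, 156199424 to 156200818) encodes a ubiquitin-like protein that is attached to other proteins and also secreted. Its FPKM was 19.5 and 18.8 at 0h, 26.0 and 32.4 at 6h, 37.4 and 59.8 at 12h, 95.8 and 111 at 24h, and 20.3 and 29.5 at 48h. Successive times up to 24h stood higher with no overlap, and at 48h library 2 lay below the 6h range and library 3 within it. Isg15 passed at 12h (log2 change 1.26, SE 0.23, adjusted p = 0.0403) and at 24h (2.37, SE 0.23, adjusted p = 0.00189). Usp18, which removes Isg15 from proteins and inhibits the type I receptor, was at 2.28 and 2.42 FPKM at 0h, 2.62 and 3.5 at 6h, 2.09 and 2.81 at 12h, 7.29 and 7.86 at 24h, and 1.64 and 3.18 at 48h. Only its 24h libraries lay apart from the rest (24h against 0h log2 change 1.36, SE 0.22, adjusted p = 0.015). The other 4 tested genes of this group, the ubiquitin ligases Trim25 and Dtx3l and the ADP-ribosylation proteins Parp9 and Parp14, had log2 differences from 0.34 to 0.81 and did not pass (adjusted p from 0.0599 to 0.283).

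The 4 transcription factors had their highest mean at different times, 24h for Irf7 and Stat2, 48h for Irf9 and 6h for Irf1. All 4 had differences above zero at 24h and at 48h against 0h. Whether their time courses differ was not tested. Irf7 (chromosome 7, 141262706 to 141266481) is the factor that amplifies type I interferon production once induced. It was at 9.69 and 13.4 FPKM at 0h, 11.1 and 16.9 at 6h, 10.8 and 12.1 at 12h, 32.4 and 40.7 at 24h, and 16.5 and 21.1 at 48h, and rose at 24h (log2 change 1.59, SE 0.22, adjusted p = 0.00778). The times up to 12h overlapped, the 24h pair was the highest, and at 48h library 2 lay within the 6h range. Irf9, the DNA-binding subunit of the type I complex, was at 11.3 and 11.5 FPKM at 0h, 13.7 and 12.6 at 6h, 11.4 and 12.7 at 12h, 14.8 and 15.6 at 24h, and 18.6 and 18.3 at 48h. Its highest values were at 48h, where it rose (log2 change 0.65, SE 0.11, adjusted p = 0.0079), while at 24h it did not pass (0.38, adjusted p = 0.0983). Stat2, its partner, and Irf1, a factor of the gamma response, had 24h differences of 0.33 and 0.28 (adjusted p = 0.277 and 0.504).

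**Figure D2:**
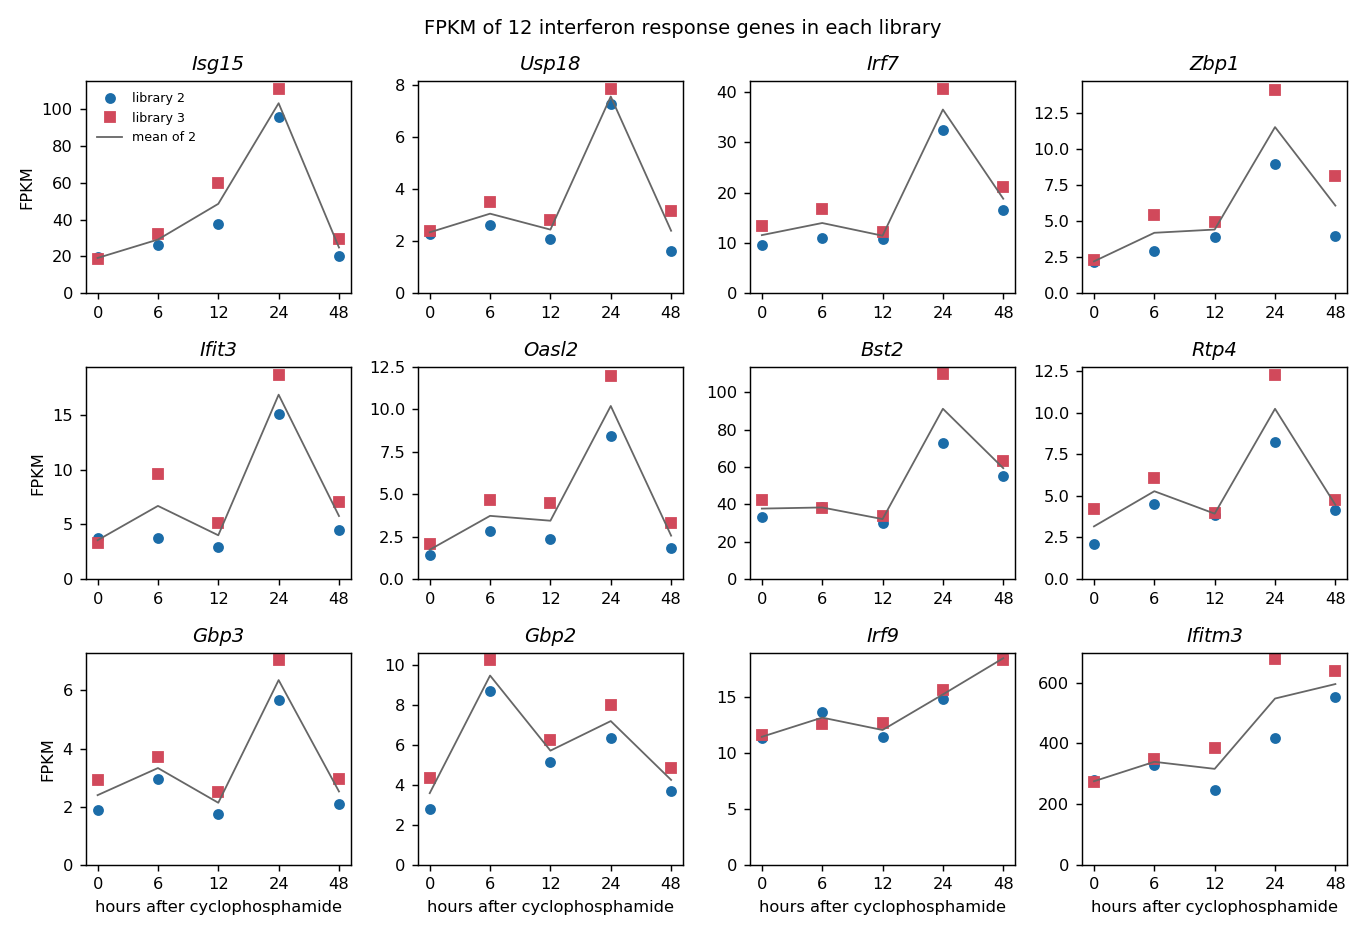
FPKM (linear axes from 0) of 12 of the genes against hours after the drug, with times evenly spaced, 1 symbol per library and a line through the means of 2 libraries. Isg15, Usp18, Irf7, Zbp1, Ifit3, Oasl2, Bst2, Rtp4 and Gbp3 have their highest mean at 24h, Gbp2 at 6h, and Irf9 and Ifitm3 at 48h.

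Of 5 sensors of nucleic acid, 2 rose at 24h. Zbp1, which binds left-handed double-stranded nucleic acid and can trigger necroptosis, was at 2.14 and 2.29 FPKM at 0h, 2.96 and 5.44 at 6h, 3.93 and 4.92 at 12h, 8.95 and 14.2 at 24h, and 4.01 and 8.18 at 48h. Every later library was above both 0h libraries, and the 24h pair was above the rest (log2 change 1.93, SE 0.32, adjusted p = 0.015). Ifih1, the sensor MDA5 of long double-stranded RNA, was at 1.38 and 1.48 FPKM at 0h, 1.56 and 1.92 at 6h, 1.88 and 3.09 at 12h, 3.71 and 4.10 at 24h, and 1.90 and 2.62 at 48h. It rose at 24h (log2 change 1.01, SE 0.20, adjusted p = 0.0283), again with its 24h pair above every other library. Ddx58 (the sensor RIG-I), Dhx58 (their regulator LGP2) and Eif2ak2 (the kinase PKR, which halts translation) had differences of 0.64, 1.15 and 0.69 and did not pass (adjusted p = 0.112, 0.054 and 0.0822).

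The IFIT genes, neighbours on chromosome 19 between 34550694 and 34650009, encode proteins that bind foreign RNA ends. Ifit3 was at 3.80 and 3.32 FPKM at 0h, 3.80 and 9.60 at 6h, 2.91 and 5.11 at 12h, 15.1 and 18.7 at 24h, and 4.50 and 7.05 at 48h. Its 24h pair stood above all other libraries and it rose (log2 change 1.97, SE 0.35, adjusted p = 0.0209), while the 6h libraries differed from each other by more than the 0h mean. Ifit1 showed the same split at 6h, with 0.886 and 5.85 FPKM, beside 1.5 and 1.31 at 0h, 1.58 and 3.95 at 12h, 5.98 and 7.72 at 24h, and 0.976 and 1.82 at 48h. Its 24h pair was also the highest but did not pass (log2 difference 1.70, SE 0.51, adjusted p = 0.102), and Ifit2 did not pass either (0.66, adjusted p = 0.154).

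The OAS genes lie on chromosome 5, and the active enzymes make a second messenger that turns on an RNA-degrading nuclease when they meet double-stranded RNA. Oasl2, an OAS-like protein, was at 1.39 and 2.07 FPKM at 0h, 2.80 and 4.64 at 6h, 2.38 and 4.50 at 12h, 8.42 and 12.0 at 24h, and 1.82 and 3.30 at 48h. It rose at 24h (log2 change 2.03, SE 0.31, adjusted p = 0.0111), as did Oasl1, which inhibits translation of Irf7 in mice (2.14, SE 0.50, adjusted p = 0.0499746). Oasl1 passed with 2 of the 10 libraries left out. Oas2 was at 1.75 and 1.98 FPKM at 0h, 1.14 and 3.18 at 6h, 1.10 and 0.979 at 12h, 4.36 and 5.41 at 24h, and 0.978 and 1.12 at 48h. Both its 12h and both its 48h libraries were below both 0h libraries, with 24h above them (24h against 0h 1.03, adjusted p = 0.0686). Oas1a had a 24h difference of 1.15 (adjusted p = 0.0847). The Oas1 and Ifit genes have close paralogs, and how the authors' counting shared reads among them is not given, so single members of these families are uncertain.

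Mx1 and Mx2 encode antiviral GTPases, and C57BL/6 mice are known to lack a functional Mx1 protein. Mx1 was at 0.589 and 0.678 FPKM at 0h, 0.660 and 2.38 at 6h, 0.407 and 1.23 at 12h, 2.89 and 3.08 at 24h, and 0.827 and 1.22 at 48h. Mx2, listed as a polymorphic pseudogene in GENCODE M21, was at 0.517 and 0.315 FPKM at 0h, 0.536 and 0.616 at 6h, 0.334 and 0.614 at 12h, 1.46 and 1.74 at 24h, and 0.176 and 0.621 at 48h. For both genes the 24h pair was above all other libraries, without passing (adjusted p = 0.0625 and 0.0596). Because Mx2 passed the filter on low values through its 24h libraries alone, its 24h result is no support for a rise.

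Enzymes acting on RNA or nucleotides gave 0 calls among 4 genes at 24h. Cmpk2, a mitochondrial nucleotide kinase, was at 1.12 and 1.73 FPKM at 0h, 0.876 and 3.04 at 6h, 0.855 and 0.963 at 12h, 3.41 and 3.37 at 24h, and 0.739 and 1.40 at 48h. Isg20, an exonuclease, was at 9.01 and 10.7 FPKM at 0h, 11.7 and 10.3 at 6h, 10.3 and 8.61 at 12h, 14.0 and 13.4 at 24h, and 8.57 and 10.7 at 48h. Each had its 24h pair above all other libraries, with log2 differences of 0.87 and 0.44 (adjusted p = 0.162 and 0.141). Rsad2, the antiviral enzyme viperin, rested on 1 library at 6h, with 0.591 and 4.10 FPKM beside 0.516 and 0.875 at 0h and 1.78 and 2.36 at 24h.

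Of 4 membrane, secreted or trafficking proteins, 2 rose at 24h. Bst2, or tetherin, which holds budding viruses at the cell surface, was at 33.3 and 42.2 FPKM at 0h, 38.6 and 38.1 at 6h, 30.3 and 33.9 at 12h, 72.7 and 109.7 at 24h, and 55.4 and 63.3 at 48h. It was level up to 12h, and each 24h and 48h library was above every library up to 12h (24h log2 change 1.23, SE 0.19, adjusted p = 0.0119). Its 48h pair lay below its 24h pair. Rtp4, which helps receptors reach the cell surface, was at 2.13 and 4.20 FPKM at 0h, 4.50 and 6.06 at 6h, 3.86 and 4.0 at 12h, 8.22 and 12.3 at 24h, and 4.16 and 4.77 at 48h, and rose at 24h (1.45, SE 0.25, adjusted p = 0.0195). Ifitm3 was at 330.1 and 348 FPKM at 6h, 248 and 384 at 12h, 418 and 678 at 24h, and 553 and 638 at 48h, so that 24h and 48h overlapped. It did not pass at 24h (0.95, adjusted p = 0.0648) and rose at 48h (1.11, SE 0.24, adjusted p = 0.0208). Lgals3bp, a secreted glycoprotein, was at 10.47 and 18.2 FPKM at 0h and 20.2 and 34.1 at 24h and did not pass (adjusted p = 0.23).

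Xaf1, which opposes inhibitors of apoptosis, was at 1.25 and 1.31 FPKM at 0h, 2.01 and 2.16 at 6h, 0.997 and 0.896 at 12h, 2.37 and 3.47 at 24h, and 1.56 and 2.0 at 48h. Each time lay apart from 0h, with 12h below it, and the 24h difference fell just short of the threshold (0.77, SE 0.18, adjusted p = 0.0500444). Ifi35, a cytoplasmic protein, was at 16.7 and 19.0 FPKM at 0h, 21.6 and 21.6 at 6h, 17.6 and 21.0 at 12h, 24.6 and 31.4 at 24h, and 21.9 and 27.6 at 48h (24h difference 0.62, adjusted p = 0.0697).

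**Figure D3:**
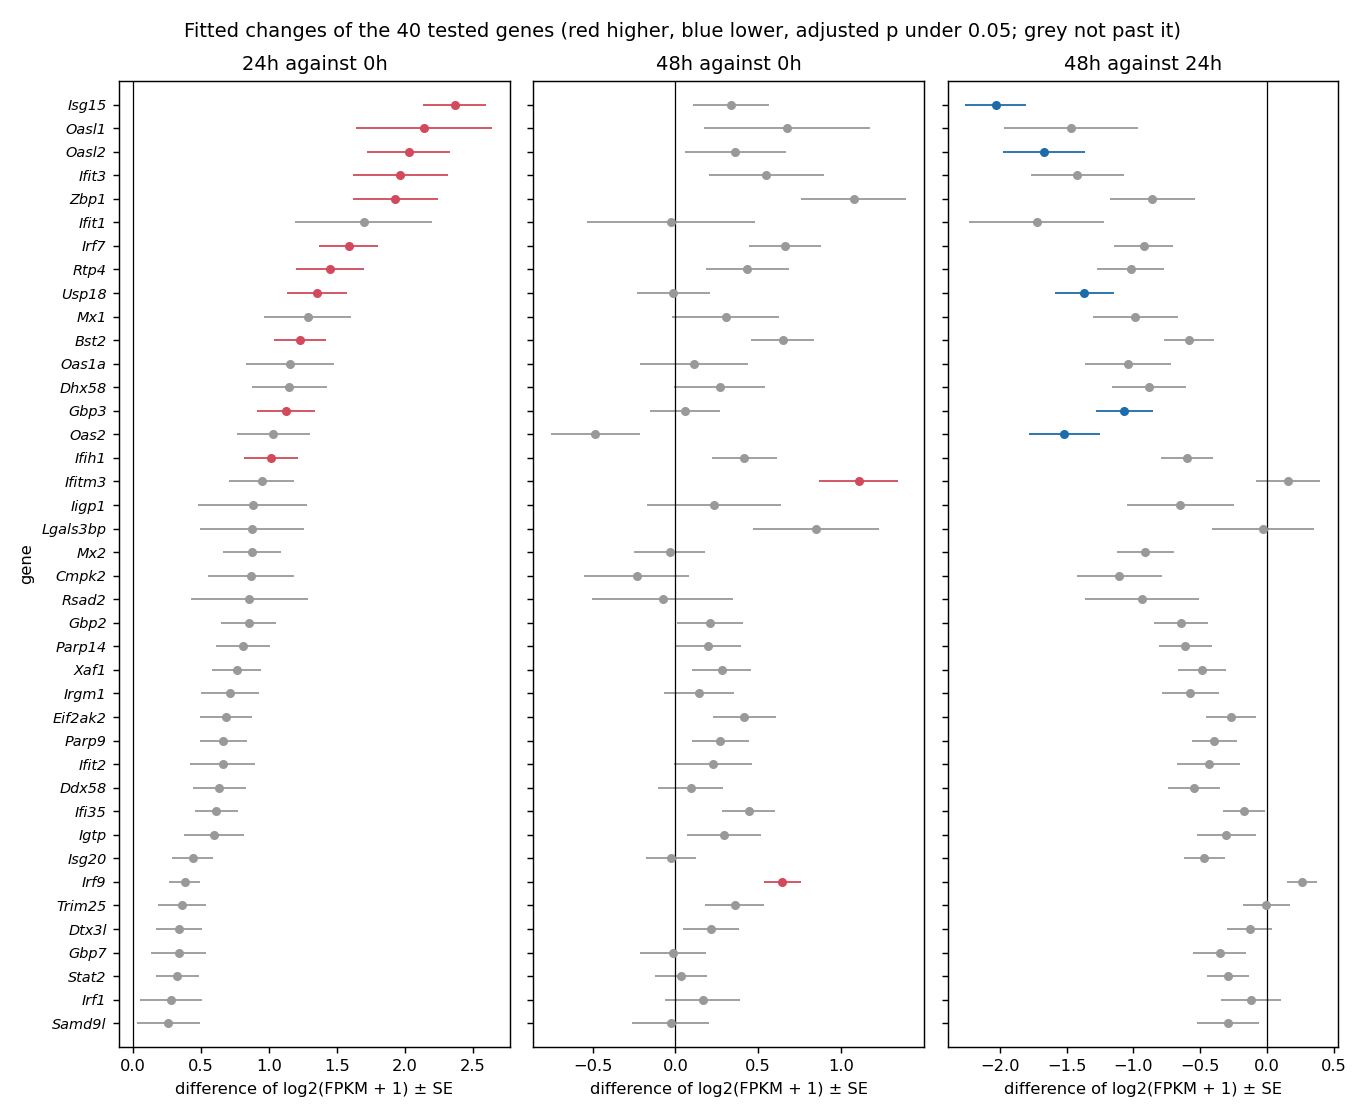
Points are fitted differences of log2(FPKM + 1) with their SE for the 40 tested genes at 24h against 0h, 48h against 0h and 48h against 24h, ordered by the first. The 11 red points at 24h run from Ifih1 at 1.01 to Isg15 at 2.37, the 2 red points at 48h are Irf9 and Ifitm3, and the 5 blue points are Gbp3, Usp18, Oas2, Oasl2 and Isg15.

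GTPases of the GBP and IRG families attack the membranes around intracellular microbes and are induced mainly by interferon gamma. Gbp2 (chromosome 3, 142620602 to 142638008) was at 2.81 and 4.37 FPKM at 0h, 8.71 and 10.3 at 6h, 5.16 and 6.28 at 12h, 6.37 and 8.03 at 24h, and 3.68 and 4.83 at 48h. Both 6h libraries were above every other library, yet the 6h difference did not pass over all genes (log2 difference 1.21, SE 0.20, adjusted p = 0.089). Gbp2 passed the F test over the 4 comparisons (adjusted p = 0.025). Igtp and Iigp1 also had their highest mean at 6h, with 6.27 and 10.01 FPKM against 4.36 and 4.36 at 0h for Igtp, and 5.42 and 11.1 against 1.64 and 3.25 for Iigp1, and neither passed (adjusted p = 0.235 and 0.226). At 24h Igtp was at 7.13 and 7.11 FPKM and Iigp1 at 4.58 and 5.83. Gbp3 had its highest mean at 24h, at 1.89 and 2.90 FPKM at 0h, 2.94 and 3.72 at 6h, 1.76 and 2.51 at 12h, 5.67 and 7.04 at 24h, and 2.09 and 2.96 at 48h. It was the 1 of 6 GTPases of this group that rose at 24h (log2 change 1.13, SE 0.21, adjusted p = 0.026). Whether the time courses of Gbp2 and Gbp3 differ was not tested.

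At 6h 0 of the 43 passed (limma; 0.0440% of all genes tested passed, 0.0294% higher), with 7 at an unadjusted p under 0.05, all higher, beside 12.3% of all genes tested in either direction. Both 6h libraries were above both 0h libraries in 22 of 43 members, against 23.1% of genes tested. Over the 43 the median 6h difference was 0.30, with 43 above zero, beside 0.04 and 57.4% for all genes tested. The 6h libraries were unlike each other for this family: 38 of 43 members were higher in library 3, with a median gap of 0.36 on the log2(FPKM + 1) scale, against 62.0% of genes tested and a median gap of 0.09. Library 3 was also the higher one at the other times, for 34 members (0h), 34 (12h), 35 (24h) and 42 (48h), with median gaps of 0.17, 0.24, 0.28 and 0.33, while the share of all genes higher in library 3 ran from 36.6% at 12h to 62.0%. The 24h libraries were both above 0h all the same, as the medians by role show.

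**Figure D4:**
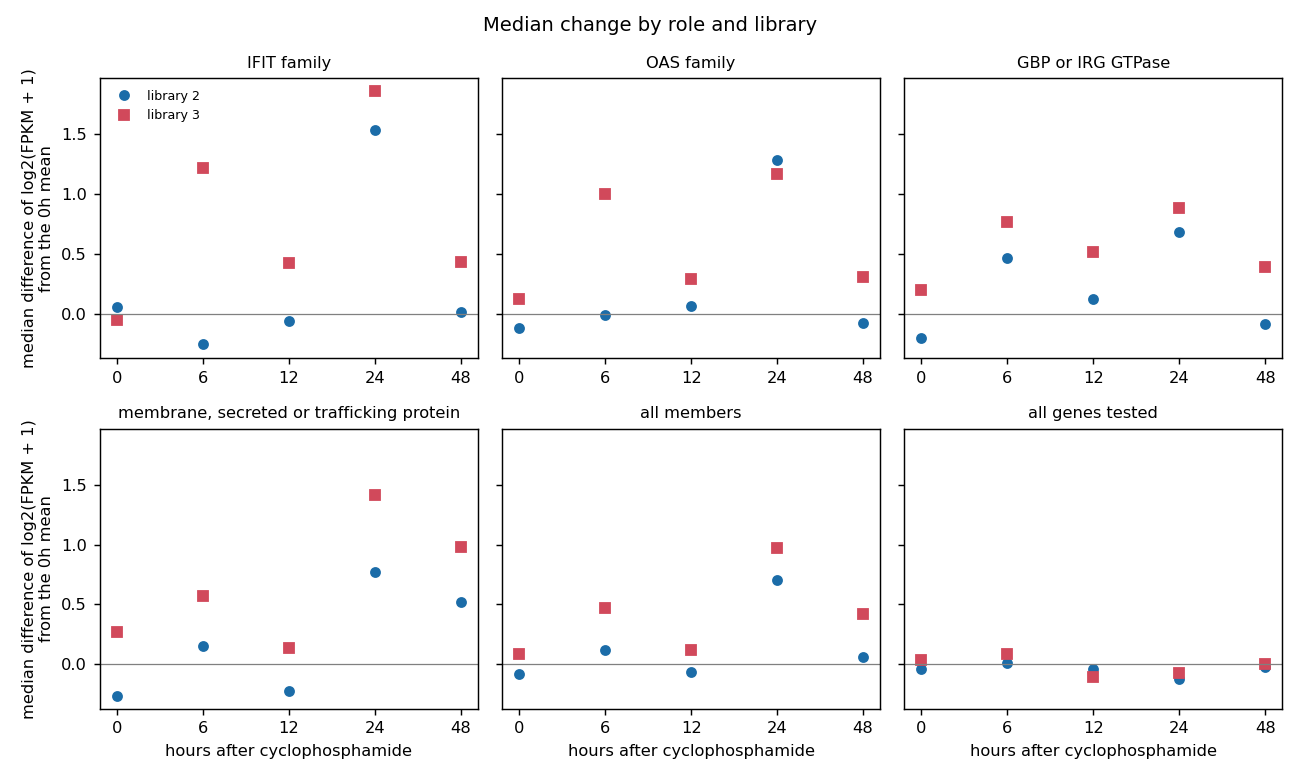
Median difference of log2(FPKM + 1) from the 0h mean in each library, for 4 role groups, all 43 members and all 13625 genes tested, against hours after the drug (times evenly spaced). All members stand at 0.71 and 0.97 at 24h and at 0.06 and 0.42 at 48h, all genes tested at -0.12 and -0.07 at 24h, and the IFIT and OAS groups split between the 2 libraries of 6h.

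At 12h Isg15 was the 1 member that rose, while 0.279% of all genes tested rose and 0.800% fell, and its call ended without 0h library 2, 0h library 3 or 12h library 3. Both 12h libraries were above both 0h libraries in 9 members, against 15.9% of genes tested, and below them in 6, against 32.3%. The median difference of the 43 was 0.06, beside -0.08 for all genes tested. From 6h to 12h 0 members passed, with 5 at an unadjusted p under 0.05, 1 of them higher, beside 11.4% of all genes tested in either direction, and 0% of all genes tested passed. The median of this step over the 43 was -0.27, with 4 above zero, beside -0.12 and 28.7% for all genes tested.

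From 12h to 24h both libraries rose above both for 40 of 43 members, against 19.4% of genes tested; the exceptions were Trim25, Igtp and Iigp1. Yet 0 members passed (limma; 0.0220% of all genes tested rose), with 31 at an unadjusted p under 0.05, all higher, beside 9.90% of all genes tested in either direction. The smallest adjusted p, 0.0547, was shared by Bst2 and Irf7, with log2 differences of 1.45 and 1.59, and the median over the 43 was 0.78. The count was 12 with the libraries' numbers as a block, 2 with a smaller pseudocount, after median-of-ratios scaling or without either 6h library, and 1 without 24h library 2.

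By 48h much of this was gone. From 24h to 48h 5 members fell and 0 rose, beside 2.26% of all genes tested that changed and 1.04% that fell, and both 48h libraries were below both 24h libraries in 35 of 43, against 16.7% of genes tested. Isg15 fell by 2.03 on the log2 scale (SE 0.23, adjusted p = 0.00649), Oasl2 by 1.67 (adjusted p = 0.0269), Oas2 by 1.52 (adjusted p = 0.0235), Usp18 by 1.37 (adjusted p = 0.0183) and Gbp3 by 1.07 (adjusted p = 0.0377). Irf7, Bst2 and Zbp1 had differences of -0.92, -0.58 and -0.86 and did not pass (adjusted p = 0.0597, 0.133 and 0.183). The Isg15 fall passed with each library left out. The count of 5 was 1 without 24h library 2, 24h library 3 or 48h library 2, 2 on dropping 48h library 3, 11 on dropping either library of 6h, and 0 in a fit of those times alone.

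Against 0h, 2 members, Irf9 and Ifitm3, were higher at 48h and 0 lower, beside 8.92% of all genes tested that changed, 4.80% higher and 4.12% lower, so the share of the family that rose was near the background. Both 48h libraries were above both 0h libraries in 19 of 43 members and below them in 1, Oas2, against 27.0% and 28.0% of genes tested. Bst2 and Zbp1 had 48h differences of 0.65 and 1.08 (adjusted p = 0.0627 and 0.0644), and Usp18, Isg15 and Gbp3 ones of -0.01, 0.34 and 0.06. The count was 0 without 0h library 2 or 48h library 3 and 1 without 0h library 3 or 48h library 2. Markers of skin compartments differed at 48h too. Summed FPKM of 6 epidermal keratinocyte markers was 6566 to 7923 at 0h and 12709 to 13594 at 48h, with 4 of the 6 higher, and that of 7 hair follicle markers was 15309 to 15726 and 7937 to 9820, with 7 of the 7 lower. Their part in the values of Irf9 and Ifitm3 was not tested.

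The interferons themselves were hardly seen. Of 21 ligand genes, 18 were listed at 0 in every library, among them Ifnb1, the beta interferon, and the alpha interferons of the list. Ifng, the gamma interferon, was listed at 0 in 8 libraries and at 0.460 and 0.0841 FPKM at 48h, and Ifnk, the kappa interferon of keratinocytes, reached at most 0.180 FPKM. Ifnz, the other ligand gene above 0, was listed at 0 in 5 libraries, both 0h libraries among them. It was at 0.192 and 0.0903 FPKM at 24h and at 0 and 0.293 at 48h. Absolute depth is not known from FPKM, so no limit can be put on these zeros.

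The receptors and kinases were expressed in every library. Ifnar1 and Ifnar2, the type I receptor chains, were at 5.25 ± 0.609 and 15.1 ± 1.64 FPKM (SD, n = 2) at 0h and at 4.87 ± 0.205 and 16.5 ± 2.41 at 24h, and Ifngr1, a gamma receptor chain, at 19.8 ± 5.34 and 24.3 ± 6.43. Of 11 receptors and JAK-STAT genes, 0 passed at 6h, 12h or 24h, beside 0.0440%, 1.08% and 3.32% of all genes tested. At 48h 2 of the 11 rose, Stat3 among them, beside 4.80% of all genes tested. Stat3, a factor shared with other cytokines, was at 15.1 and 15.6 FPKM at 0h and 21.4 and 31.8 at 6h. It was at 19.8 and 31.3 FPKM at 12h and 15.2 and 23.5 at 24h, and rose by 1.08 at 48h (adjusted p = 0.0337). Among 8 inhibitors of the pathway 0 passed in any single comparison with 0h, beside 0.0440% (6h) to 8.92% (48h) of all genes tested. Socs1, which blocks JAK kinases, was at 8.64 ± 1.18 FPKM at 0h and 5.26 ± 0.0966 at 6h (adjusted p = 0.123). It was at 10.7 ± 0.814 FPKM at 12h, 6.49 ± 0.167 at 24h and 6.43 ± 0.478 at 48h. Over all comparisons with 0h together, Socs1 passed (limma F test, adjusted p = 0.0167). Socs3, another of the inhibitors, was at 12.7 ± 0.197 FPKM at 0h, 28.8 ± 7.34 at 6h and 30.5 ± 20.3 at 12h. It was at 15.6 ± 2.77 FPKM at 24h and 30.3 ± 2.62 at 48h. Socs3 did not pass the F test (adjusted p = 0.125). Of 24 nucleic acid sensing genes and adaptors beyond the 43, 21 were tested. Against 0h 0 of them passed, beside the same 0.0440% to 8.92% of all genes tested.

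Further interferon targets outside the 43 showed rises at 24h and at 48h. The lists here and in the next paragraph were chosen with earlier results of these data known. Their counts are therefore no independent support for a rise of the 43. Of 62 listed interferon-stimulated genes with a row, 58 were tested, 8 rose at 24h and 7 at 48h, and 0 fell at either, with 1.37% and 4.80% of all genes tested as the background of rises. Apol9b, an apolipoprotein L family member, rose from 0.661 ± 0.276 to 4.73 ± 0.994 FPKM at 24h (log2 change 1.79, adjusted p = 0.0108) and was at 1.07 ± 0.712 at 48h. Ifitm1, a relative of Ifitm3, rose from 11.3 ± 4.35 to 29.8 ± 11.2 FPKM (1.32, adjusted p = 0.0302) and was at 27.4 ± 0.742 at 48h, and Lgals9, a galectin, had a mean of 52.3 FPKM at 24h and 58.1 at 48h from 20.8 at 0h (24h 1.25, adjusted p = 0.0394; 48h 1.44, adjusted p = 0.0112). Uba7 and Ube2l6, the enzymes that attach Isg15 to proteins, rose by 0.77 and 0.91 at 24h (adjusted p = 0.0448 and 0.0433).

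Genes induced mainly by interferon gamma gave 2 rises of 16 tested at 24h and 4 at 48h, beside 1.37% and 4.80% of all genes tested. Cxcl10, a chemokine for T cells, was at 4.30 and 1.99 FPKM at 0h, 6.61 and 9.44 at 6h, 13.4 and 24.5 at 12h, 10.02 and 11.2 at 24h, and 3.88 and 4.95 at 48h. It was highest at 12h, where both libraries stood above those of the times before, and passed at 12h (log2 change 2.27, adjusted p = 0.015) and 24h (1.54, adjusted p = 0.0299). Tap1, a peptide transporter of antigen presentation, was at 30.6 and 22.3 FPKM at 0h, 31.9 and 35.9 at 24h, and 50.6 and 66.3 at 48h, and rose at 48h against 0h (1.12, adjusted p = 0.00427), as did the immunoproteasome subunit Psmb9 (0.98, adjusted p = 0.0139). From 24h to 48h neither passed (adjusted p = 0.0507 for Tap1 and 0.181 for Psmb9). Gbp4, another GTPase, was at 0.955 and 1.68 FPKM at 0h and 1.60 and 1.72 at 24h and did not pass (adjusted p = 0.601).

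Markers of immune cells did not rise past the threshold at 24h. Of 9 macrophage markers, all tested, 0 passed and 8 had differences above zero, with a summed FPKM of 259 to 364 at 0h and 326 to 533 at 24h. Fcgr1, among these 9, is also on the list of genes induced mainly by interferon gamma. Its means were 1.27 FPKM at 0h and 3.29 at 24h. Of 5 markers shared by leukocytes, 0 rose, 1, Cd52, fell, and 3 had differences above zero. They summed to 54.7 to 61.1 FPKM at 0h and 35.6 to 47.1 at 24h. Cd52 was the highest of them, with means of 30.1 FPKM at 0h and 16.0 at 24h. T and NK cell markers summed to 16.8 to 24.1 FPKM at 0h and 9.60 to 12.3 at 24h, with 4 of 11 tested and 0 passing, and 3 dendritic and Langerhans cell markers tested gave 0 calls. The neutrophil list summed to 0.888 to 0.965 FPKM at 0h, 3.61 to 7.63 at 6h and 0.769 to 1.64 at 24h, with Ngp listed at 0 in every library. Siglech, which defines plasmacytoid dendritic cells, a main source of type I interferon, was at most 0.0599 FPKM in any library. Of the other listed markers of these cells, Klk1, Pacsin1 and Ccr9 reached at most 0.881, 0.714 and 0.395 FPKM, while Cox6a2, also a gene of striated muscle, ranged from 104 to 295 FPKM, did not pass at 24h (adjusted p = 0.0748) and fell at 12h and 48h. Other tissue markers had also moved at 24h. Of 5 skeletal muscle markers 2 fell, with sums of 7714 to 8873 FPKM at 0h and 4606 to 4989.9 at 24h, and 4 of the 5 were lower at 48h. Of 7 hair follicle markers 3 fell at 24h, namely Krt35, Lef1 and Shh, although their summed FPKM was 19190.4 to 20744 at 24h against 15309 to 15726 at 0h. The part of these tissues and of macrophages in the 24h values was not tested.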

How the data were processed

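RNA-seq of 10 libraries of back skin, 2 at each of 5 times, was used. The deposited table holds 1 FPKM value per gene and library; the authors' header names no unit, and FPKM was inferred because Cufflinks reports it and the values are fractional. TopHat2 2.1.1, Cufflinks 2.2.1 and mm10 are named in the submitters' processing notes, with no role or order. How genes were annotated, filtered or scaled is not stated in those sources. Of 24358 rows, 27 whose symbol had become a date were left out. Columns carry the numbers 2 and 3 while the labels use 1 and 2, so columns were matched to times only. FPKM summed to between 862653 and 978550 per library. The most frequent ratio of low values gave relative depths from 1 to 1.42.

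All 10 libraries entered 1 limma 3.58.1 fit (R 4.3.3; empirical Bayes with an intensity trend, 5 residual degrees of freedom) on log2(FPKM + 1), and the script was tested on simulated data. Members and lists were chosen with earlier results of these data known. Members past the threshold are named; values per library are given for the 2 genes of each role with the smallest F test p, and some further genes were named after their values were seen. From each other list up to 3 genes with the largest change and some preset genes are named; 1 gene's result is not reported here. Gene positions are from GENCODE M21 and promoters from RefSeq. Alternatives were the pseudocount, the filter, scaling, the samples in the fit, the library number as a block, and each library left out.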

Additional observations from a re-analysis of the deposited data

How the results depend on the processing

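Every fitted change of a named gene kept its direction under the alternatives run, while the counts of members past the threshold moved. At 24h against 0h the count of 11 was 5 with no filter on low values, 6 of fewer genes with a mean of at least 5 FPKM, 20 and 19 with median-of-ratios and quantile scaling, and from 1 to 17 with 1 library left out. At 48h against 24h the count of 5 was 1 unfiltered, 1 with the mean of at least 5 FPKM, 0 where only those 2 times were fitted, and from 1 to 11 with 1 library left out. The count of 1 at 12h against 0h was 0 with no filter and from 0 to 1 with 1 library left out. At 48h against 0h the count of 2 was 1 unfiltered, 4 where only those 2 times were fitted and from 0 to 3 with 1 library left out. At 6h against 0h the count of 0 was 1 where only those 2 times were fitted. For 24h against 12h the count of 0 was 2 with log2(FPKM + 0.1), 2 after median-of-ratios scaling and from 0 to 2 with 1 library left out. The count of 14 at any time was 4 with no filter, 9 with the mean of at least 5 FPKM and from 3 to 19 with 1 library left out. Apart from these filters, which change the genes tested, and the fits with fewer samples, the cause was not tested.

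With the number carried by the columns as a replicate block the counts against 0h were 2 (6h), 2 (12h), 25 (24h) and 6 (48h), 12 for 24h against 12h, 14 for 48h against 24h and 22 at any time. The labels do not say that the numbers pair the libraries. Over the genes tested the differences between library 3 and library 2 correlated between times from -0.10 to 0.22. Of 10 pairs of times, 5 were over 0.1. Among the members, library 3 was the higher one for 34 (0h), 38 (6h), 34 (12h), 35 (24h) and 42 (48h). Correlations over all genes cannot decide the matter for this family, so whether libraries of the same number are paired is not known. Median-of-ratios scaling moved the median of all genes from -0.12 to 0.00 for 12h against 6h, and turned the split of all calls at 24h from 187 higher and 265 lower to 307 and 162. The 40 tested members were above 0h at 24h under both scalings.

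Depth in reads is unknown, and 2 libraries per time limit the precision of members under 1 FPKM.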
